A study of Homo sapiens with 4 samples.

Results

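RepID-bound regions of the human genome that had no replication origin close by in wild-type cells are described here. A region belonged to the set when it lay on chromosomes 1 to 22 and no origin of HCT116 WT cells was listed at a gap of 2 kb or less. The set was therefore chosen by a pair of measured lists, the RepID binding list and the WT origin list. It held 2097 of the 23897 autosomal RepID regions, which is 8.78% (exact binomial 95% interval 8.42 to 9.14%). The other 21800 had a WT origin within 2 kb. These classes are called origin-free and origin-near regions, and "origin-free" says only that no WT origin was listed there. The list also held 325 RepID regions on chromosomes X and Y, which were not used.

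The study asked how RepID, a chromatin-binding protein, takes part in the start of DNA replication. Binding was read by ChIP-Seq with an anti-FLAG antibody in osteosarcoma-derived U2OS cells that stably expressed RepID-3xFLAG. Origins were measured by sequencing nascent strands, short newly made DNA protected from lambda exonuclease by its RNA primer, in a colorectal carcinoma line, HCT116. Its WT cells had RepID unaltered, and its KO cells had RepID knocked out with CRISPR-Cas9 and had been selected with puromycin. Nascent strands were taken from asynchronous cells, and each condition was 1 library. Binding and initiation thus came from different cell lines, so a RepID region without a WT origin cannot be told apart from one that is bound in U2OS cells and not in HCT116 cells. The WT and KO lists, with 78859 and 159667 regions, share 1 genomic DNA control of HCT116 cells. The deposited KO list is longer than the KO peak number the study's text gives, for a reason not stated, so its length is no measure of initiation in KO cells and every KO share here depends on it. With the KO list cut to its highest-scoring regions, as many as in the WT list, the KO overlaps given later were 11.9% for origin-free and 20.04% for origin-near regions. Sequencing depth cannot be recovered from the lists, and absence from a list is not absence of initiation. Without replicates no test between conditions was possible, and all intervals cover counting error only and treat neighbouring regions as independent.

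Human replication starts at a great many sites that carry no single shared sequence, and only some of them fire in a given cell. RepID, the product of the PHIP gene, carries WD40 repeats and bromodomains and acts as a substrate receptor of the CRL4 ubiquitin ligase. Binding of such a protein marks a place where initiation may be controlled, and a bound site need not initiate in every cell.

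Origin-free regions were the lower-scoring and narrower part of the RepID list. Their MACS score, which the peak caller gave to each region called against input, had a median of 154 (95% interval 150 to 159) with quartiles at 118 and 232. Origin-near regions had a median of 206 (203 to 208) with quartiles at 132 and 371. The deposited list begins at a score of 100, and the lowest 10% of origin-free regions lay at 105 or below. A score under 150 was found in 1006 origin-free regions (48.0%) and in 33.1% of origin-near regions, a difference of 14.9 percentage points (Newcombe 95% interval 12.7 to 17.1). At the other end, 20 origin-free regions (0.954%) reached a score of 1000, against 723 origin-near regions (3.32%). The classes overlapped over nearly the whole range, and in 62.2% (61.1 to 63.4%) of all pairs of 1 region from each class the origin-free region had the lower score.

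Width followed the same order. The median width was 461 bp (452 to 471) in origin-free regions, with quartiles at 373 and 581 bp, and 575 bp (571 to 580) in origin-near regions, with quartiles at 427 and 855 bp. Regions over 1 kb were rare without an origin, at 76 (3.62%), and common with one, at 17.5%. Only 8 origin-free regions were wider than 2 kb, against 402 origin-near regions. A wider region reaches slightly farther toward an origin, so width is not wholly separate from the rule. Score and width rose together within the class (Spearman rho 0.77 across 2097 regions, which share 1 library), and the origin-free regions made up 6.63% of the total RepID-bound length.

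The share of RepID regions without an origin fell steadily over 5 equal parts of the RepID list. By score it was 12.4, 11.8, 9.6, 6.7 and 3.35% from the lowest part to the highest. By width it was 14.5, 11.3, 9.56, 6.07 and 2.47%. The order of the medians held chromosome by chromosome, with the lower median width in origin-free regions on 22 of 22 autosomes and the lower median score on 21. The exception was chromosome 21, whose 13 origin-free regions had a median score of 246 against 224.

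**Figure D1:**
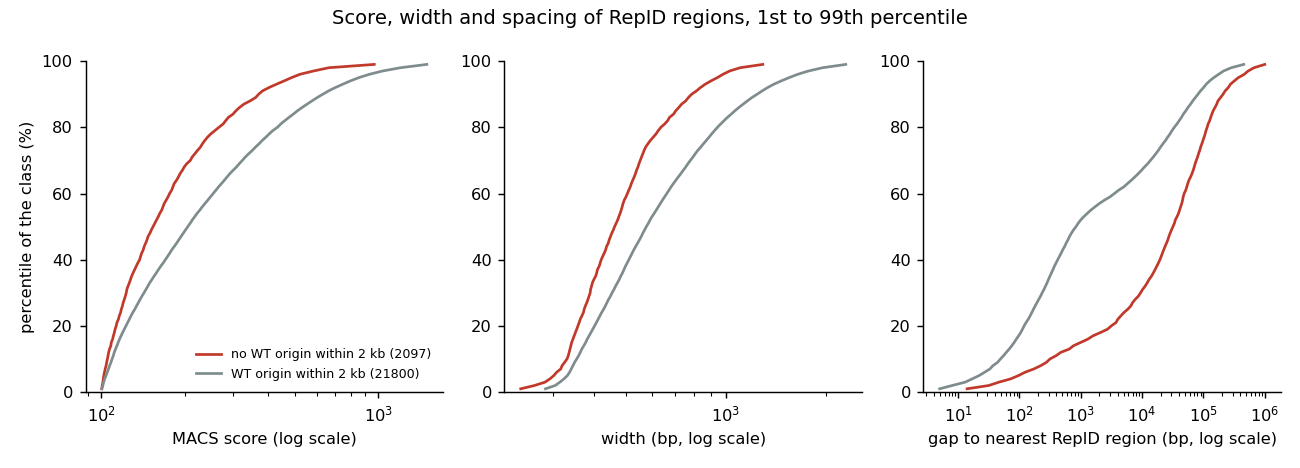
Percentiles of MACS score, width in bp and gap in bp to the nearest other RepID region, each on a log axis, for 2097 RepID regions without a WT origin within 2 kb (red) and 21800 with one (grey). The red curves lie to the left for score (median 154 against 206) and width (461 against 575 bp) and to the right for the gap (31866 against 836 bp).

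The distance to the nearest WT origin, which chose the class, had a median of 14873 bp (13317 to 16585), with quartiles at 5844 and 38902 bp. It ran from 2004 to 925846 bp. The class therefore mixes regions close to an origin with regions far from any. Between 2 and 5 kb lay 439 regions (20.9%), between 5 and 10 kb 403 (19.2%), between 10 and 20 kb 356 (17.0%), between 20 and 50 kb 480 (22.9%), between 50 and 100 kb 241 (11.5%), and beyond 100 kb 178 (8.49%). Regions farther from an origin did not score lower: the median score was 142, 148, 157, 163, 167 and 164 over these bins, and score and distance had a Spearman rho of 0.12 across the 2097 regions. The WT origins that were nearest to an origin-free region, 1795 in all, had median values of 100 in score and 2000 bp in width, below the 123 and 2400 bp of the whole autosomal WT list.

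Few regions lay near the 2 kb limit, because 96.3% of origin-near regions overlapped a WT origin outright. The 5 regions just outside it had gaps of 2004, 2004, 2005, 2009 and 2010 bp and scores of 134, 126, 148, 163 and 370. The 5 just inside had gaps of 1997, 1991, 1975, 1967 and 1966 bp and scores of 180, 100, 903, 111 and 157. The 103 origin-free regions with gaps up to 2500 bp had a median score of 148 and a median width of 480 bp. The 113 origin-near regions with gaps over 1500 bp had medians of 138 and 462 bp. On either side of the limit the values were thus close.

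The 5 regions farthest from any WT origin are given here, and they do not stand for all far regions. The 178 regions beyond 100 kb had a median width of 448 bp, against 461 bp for the class. Their median score was 164, against 154. The most remote, at chr18:38519697-38519954 with a score of 115, lay 926 kb from the nearest WT origin, while a KO region began 46 bp away. The next were at chr1:195732419-195732882 (score 199, 844 kb), chr14:47289624-47290002 (106, 806 kb), chr12:87724061-87724403 (113, 728 kb) and chr14:47120924-47121258 (107, 671 kb). None of these 5 was overlapped by a KO region, although the one on chromosome 1 had a KO region at 3.82 kb. Their widths ran from 258 to 464 bp, and 4 of the 5 scored under 150.

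KO cells offer a readout of initiation that the rule did not use. Of the origin-free regions, 407 (19.4%, 17.7 to 21.2%) were overlapped by a KO region, against 28.2% of all autosomal RepID regions and 6337 (29.1%, 28.5 to 29.7%) of the origin-near ones. The difference was -9.66 percentage points (-11.4 to -7.81). Sites without a listed origin in WT cells were thus also less often inside a listed region in KO cells. KO regions covered 19.3% of the autosomal span, from position 1 to the last listed region of each chromosome, and the centre of an origin-free region lay inside one in 15.1% (13.6 to 16.7%) of cases. The span includes sequence within 2 kb of WT origins, from which the rule bars the class, so these values are not like for like. The WT and KO lists share a control and a cell line, so the class that lacks WT origins was not drawn independently of the KO list.

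The difference in KO overlap was present at every level of RepID score and width. Over the 5 parts by score it was -10.3, -7.14, -11.0, -10.5 and -7.72 percentage points, and over those by width it lay between -9.28 and -7.47, with each interval below 0. Weighting the origin-near regions to the score and width of the origin-free ones left -8.53. Among origin-free regions alone, KO overlap did not follow the RepID score: cut by score into 3 equal parts, they had 18.5% in the lowest, 20.9% in the middle and 18.9% in the highest, with overlapping intervals. Nor did it follow the distance to a WT origin in order, at 20.3, 17.4, 20.8, 21.7, 19.1 and 13.5% over the 6 distance bins. The last value, beyond 100 kb, rested on 24 of 178 regions (8.83 to 19.4%), and its interval overlapped those of the other bins.

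**Figure D2:**
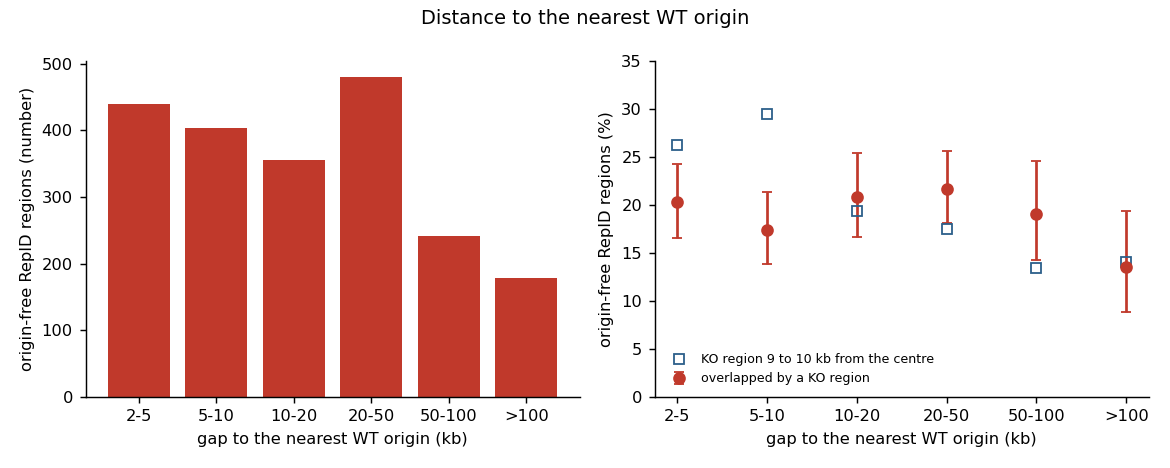
Left, number of origin-free RepID regions by gap to the nearest WT origin in kb; right, percent of each bin overlapped by a KO region (red, exact binomial 95% intervals) and mean percent of positions 9 to 10 kb from the region centre that lie in a KO region (blue squares). Overlap stays between 13.5 and 21.7%, while the value at 9 to 10 kb is highest, at 29.5%, for regions 5 to 10 kb from a WT origin.

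Many origin-free regions nevertheless had a KO region in the neighbourhood. Including gaps of up to 2 kb, 766 (36.5%) had one, against 53.9% of origin-near regions. Within 10 kb the shares were 79.2 and 83.9%. No KO region lay within 10 kb of 436 origin-free regions (20.8%, against 16.1%), and none within 50 kb of 30 (1.43%, against 0.771%). In 1703 cases (81.2%) a KO region was closer than the nearest WT origin. The rule fixes this for the 766 with a KO region within 2 kb, since it bars WT origins there and not KO regions. The share is also to be read against the length of the deposited KO list. Neither list had a region within 10 kb of 315 origin-free RepID regions (15.0%).

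The KO regions at these sites were mostly ones without a WT counterpart. The 407 overlapped RepID regions were covered by 387 KO regions, and 316 of these (81.7%) had no WT origin within 2 kb, against 63.3% of all 159441 autosomal KO regions. This share is raised by the rule, since a KO region over an origin-free RepID region starts out away from WT origins. In width these KO regions had a median of 3600 bp, against 3000 bp over the whole KO list. Their score had a median of 150, against 130. A wider KO region is more likely to overlap any given site, so the larger width is not separate from how these KO regions were picked. Whether the score difference follows from the width was not tested. Of the RepID regions, 296 lay wholly inside KO regions and 248 were overlapped by a KO region with no WT origin within 10 kb. Whether these are sites that initiate only without RepID or sites missed in the WT library cannot be told apart with 1 library each.

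Around the centres of origin-free regions, KO regions were sparser at the RepID site than beside it. The share of positions inside a KO region was 15.1% at the centre and 21.2% at 9 to 10 kb on either side, a ratio of 0.713 (0.642 to 0.789). In origin-near regions the same ratio was 0.801 (0.780 to 0.822), from 20.3 to 25.4%. In both classes the lowest point of the 40 kb window was the centre itself. However, the broad part of the trough in origin-free regions moved with the distance to WT origins. The ratio was 0.616 and 0.446 for regions at 2 to 5 and 5 to 10 kb from a WT origin, and 0.917 (0.801 to 1.04) for the 1255 regions more than 10 kb away, an interval that includes 1. Beyond 10 kb the bins gave 0.826, 0.904, 1.18 and 0.877. WT origins covered 24.2 and 28.8% of the positions at 9 to 10 kb in the first 2 bins and 0% in the others, where the distance itself excludes them.

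On a finer scale the centre was compared with positions 1 to 1.5 kb away, a distance chosen after the profile had been seen and close to its local shoulders. There the centre of all origin-free regions had 15.1% against 17.5%, a ratio of 0.865 (0.779 to 0.957). For those more than 10 kb from a WT origin it was 15.4% against 17.8% (0.863, 0.754 to 0.982), and for those at 2 to 10 kb 14.7% against 17.0% (0.868, 0.731 to 1.02). For regions more than 10 kb from a WT origin the centre was not the lowest point, as 51 of the 401 positions read within 20 kb lay below it, with the lowest, 14.0%, at 4.7 kb. A dip at the centre of these regions therefore depends on the positions it is set against. Origin-near regions had, on the scale of 1 to 1.5 kb, 20.3% against 27.0% (0.754, 0.734 to 0.774). The intervals hold the flanking value fixed and do not use the pairing of centre and flank at the same loci. They are therefore not full intervals of the ratio. The KO list lies on a grid of 200 bp, which sets the finest step that can be read.

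**Figure D3:**
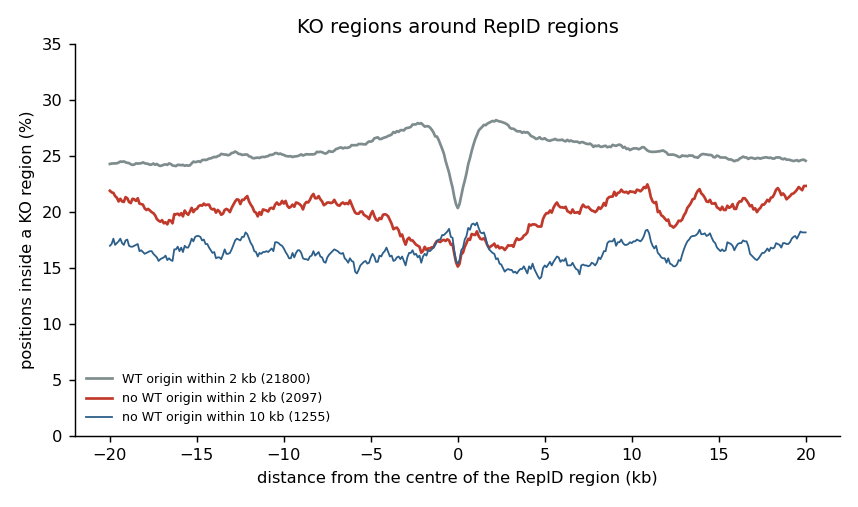
Percent of positions inside a KO region by distance in kb from the centre of the RepID region, read every 100 bp, for origin-near regions (grey), origin-free regions (red) and origin-free regions more than 10 kb from a WT origin (blue). The centre values are 20.3, 15.1 and 15.4%, and the wide trough of the red curve is not seen in the blue one.

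Origin-free regions were mostly solitary. Another RepID region of either class lay within 10 kb of 646 of them (30.8%, 28.8 to 32.8%), against 64.0% of all autosomal RepID regions and 67.2% of the origin-near ones, a difference of -36.4 percentage points (-38.5 to -34.3). Within 1 kb the shares were 15.0 and 52.0%. The median gap to the nearest other RepID region was 31866 bp in the origin-free class and 836 bp in the origin-near class. The gap was the larger one in the origin-free region in 73.1% (72.0 to 74.2%) of pairs. A cluster of RepID regions has more chances to lie at 1 wide WT origin, so spacing and the rule are not independent. The remaining 1451 regions had no other RepID region within 10 kb.

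Isolation did not by itself go with the lower score. Among regions with no other RepID region within 10 kb, the 1451 origin-free ones had a median score of 156 (151 to 163) and a median width of 461 bp, and the 7141 origin-near ones had 220 (215 to 226) and 601 bp. In the same comparison KO overlap was 19.2% against 32.2%, a difference of -13.0 percentage points. Origin-free regions that did have a neighbour had nearly the same values as the solitary ones, with a median score of 149 (145 to 157), a median width of 461 bp and a KO overlap of 19.8%.

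Where origin-free regions had company, it was often of their own class. Neighbouring regions lie at similar distances from the same WT origins, so the class of a neighbour is not independent of the rule. Another origin-free region lay within 10 kb of 433 and an origin-near region within 10 kb of 303. Chained at gaps of 10 kb or less, 338 origin-free regions fell into 156 groups made only of their class, and 308 shared 248 groups with origin-near regions. Only 5 groups of the first kind held 4 or more, with 23 regions in all. Of these groups, 3 lay close together on the long arm of chromosome 6, inside the densest 1 Mb window described below. The others were at chr4:49514494-49526517 and chr5:16889155-16898441. The chromosome 4 group lay within 1 Mb of the longest region-free stretch of its chromosome, which is also described below. The chromosome 5 group had 4 regions with scores from 106 to 247 and no KO overlap.

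On a scale of fixed 1 Mb windows, the class was thinly spread, with 1160 windows holding at least 1 region and 665 holding exactly 1. Only 5 windows held 10 or more, together 69 regions (3.29%). The densest, on chromosome 6 from 79 to 80 Mb, stood apart: all 18 of its RepID regions were origin-free. They lay between 79650348 and 79770603, a span of 120 kb, at 16.2 to 79.5 kb from the nearest WT origin. The window held 4 WT and 42 KO regions, and 1 of the 18 RepID regions was overlapped by a KO region. RepID is encoded by PHIP, which is known to lie in this stretch of chromosome 6. That placement is background, as no annotation on the coordinates of the lists was used.

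The 18 regions were unlike the rest of the class in shape. Their widths ran from 179 to 722 bp with a median of 274 bp, against 461 bp for the class, while their scores lay between 128 and 2502, the median being 266 against 154. The narrowest region of the whole class, chr6:79664530-79664708 at 179 bp with a score of 161, was among them. So was chr6:79650348-79651069, whose score of 2502 was exceeded only by the 4 regions at 3100. Of the 18, 11 were under 300 bp wide, with a median score of 197 and a highest score of 754. Elsewhere 88 of 2079 origin-free regions (4.23%) were that narrow, with a median score of 115 and a highest score of 377. Among origin-near regions 366 (1.68%) were under 300 bp, with a median score of 114 and a highest score of 556.

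Within the stretch the regions came as separate short blocks. At its lower end chr6:79654992-79655293 (302 bp, score 355), chr6:79655678-79656064 (387 bp, 883), chr6:79656343-79656608 (266 bp, 197) and chr6:79657273-79657509 (237 bp, 175) followed each other at gaps of 278 to 664 bp, and the first of them was the one with KO overlap. Farther along stood chr6:79707105-79707335 (231 bp, score 384) and chr6:79711591-79711872 (282 bp, 754), and the uppermost was chr6:79770170-79770603 (434 bp, 385). The library came from cells carrying an introduced RepID-3xFLAG construct. Whether DNA of the construct contributed reads to these regions was not tested, and the input against which they were called was not analysed here.

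**Figure D4:**
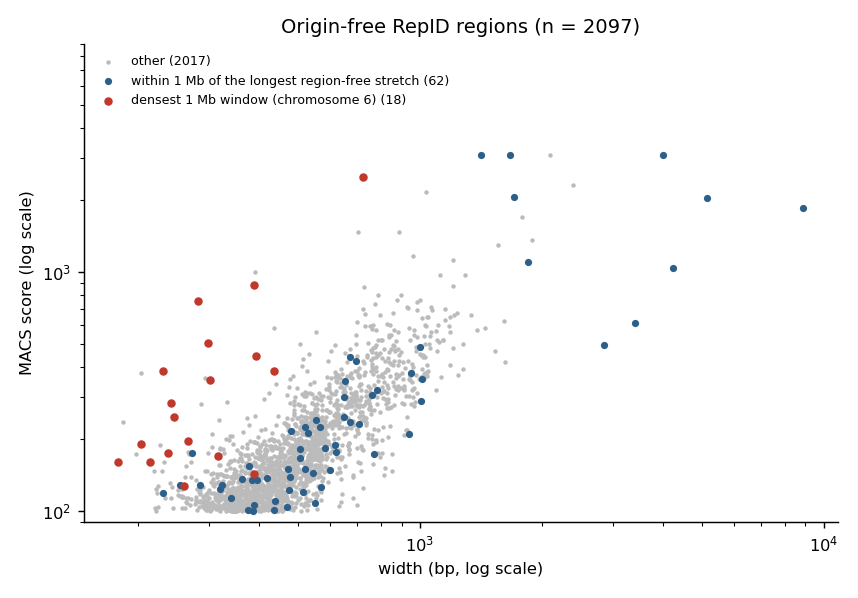
MACS score against width in bp, both on log axes, for the 2097 origin-free RepID regions, with the 18 of the densest 1 Mb window in red and the 62 within 1 Mb of the longest region-free stretch of their chromosome in blue. The red points have high scores for their width (median width 274 bp, median score 266), and the blue points include 8 of the 20 regions with a score of 1000 or more.

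The other 4 dense windows did not have that shape. On the short arm of chromosome 6 the neighbouring windows from 27 to 28 and from 28 to 29 Mb held 12 of 21 and 16 of 28 RepID regions without an origin. Median scores were 167 and 147 and median widths 457 and 395 bp, and KO regions overlapped 5 of the 12 and 3 of the 16. The interval is known for dense arrays of histone and transfer RNA genes, and the overlap with single genes was not analysed here. On chromosome 22 from 27 to 28 Mb, 12 of 69 RepID regions were origin-free, at a median of 3624 bp from an origin, in a window with 100 WT regions. On chromosome 18 from 3 to 4 Mb, 11 of 28 were origin-free, and 6 of the 11 were overlapped by a KO region, the highest such count among the 5 windows. That window held 72 KO regions.

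Several of the highest-scoring origin-free regions lay at the edges of large gaps in the lists. The longest stretch without a region of any of the 3 lists was found on each chromosome, from 3.0 to 21.1 Mb, as a stand-in for centromeric repeats and unassembled sequence. This comparison was chosen after the data were seen. The stretch was also defined in part by the WT list that the rule used. A RepID region at its edge has no WT origin on that side, so the shares below are not independent of the rule. Within 1 Mb of that stretch lay 62 origin-free regions (2.96%) and 320 origin-near ones (1.47%), a difference of 1.49 percentage points (0.824 to 2.32). The 62 had a higher median score, at 183 against 154 elsewhere in the class, and a larger median width, at 559 against 459 bp. Of the 20 origin-free regions with a score of 1000 or more, 8 lay there (40.0%, 19.1 to 63.9%), against 31 of 723 (4.29%) in the origin-near class. Their place among the 10 highest scores was larger still, at 6 of 10. KO overlap was 22.6% within 1 Mb and 19.3% elsewhere.

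The 10 highest-scoring origin-free regions show this directly. A score of exactly 3100, found for 32 regions of the list, was shared by 4 of them. These were chr1:121483810-121485480, chr10:42596695-42600688 and chr17:25289302-25290718, all within 1 Mb of the stretch and all overlapped by a KO region, and chr2:133025118-133027213, which had no KO region within 10 kb. A second region on the same part of chromosome 2, chr2:133029559-133031954, scored 2316. The WT origin nearest to the first lay 7.72 kb away with a WT score of 9337, and that nearest to the second lay 4.25 kb away with a WT score of 2125. Next came chr12:124577175-124578211 (2156), chr20:29610942-29612646 (2061), chr10:42392170-42397291 (2051) and chr10:42383245-42392148 (1853), besides the region in the PHIP stretch given above. The last pair, 21 bp apart, were also the widest of the class at 5122 and 8904 bp, and lay 209 and 214 kb from the nearest WT origin. The wider one bounded the stretch on chromosome 10.

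The strongest KO signal over any origin-free region was also found at such edges. The 5 highest-scoring KO regions over the class were those at chr1:121478401-121485600 (KO score 43090), chr6:58773601-58780200 (34046), chr7:61967001-61987200 (32068), chr19:27731801-27741200 (30227) and chr10:42596601-42606400 (24296). The median of the whole KO list was 130. The RepID regions beneath them scored 3100, 610, 1041, 1105 and 3100, and the nearest WT origins lay 53.4, 191, 88.4, 522 and 5.91 kb away. Each was within 1 Mb of the longest region-free stretch. The part that repeated sequence plays in these scores was not tested. Without all regions within 1 Mb of a stretch, the difference in KO overlap was -9.56 percentage points.

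The share of RepID regions without an origin varied between chromosomes by more than its counting error. It was lowest on chromosome 17 (3.36%, 2.56 to 4.32%), chromosome 19 (4.29%, 3.23 to 5.58%) and chromosome 16 (5.16%, 3.99 to 6.56%). It was highest on chromosome 18 (17.1%, 13.7 to 21.0%), chromosome 6 (15.7%, 13.6 to 18.0%) and chromosome 4 (12.9%, 10.4 to 15.7%). The intervals of the first 3 and the last 3 did not overlap. Chromosome 2 held the most regions, 248. Per Mb, the class was least dense on chromosome 21 (0.27) and densest on chromosome 20 (1.35) and chromosome 22 (1.27).

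The ordering of chromosomes followed how much of each was covered by WT origins. WT regions covered 27.5% of chromosome 17 and 32.3% of chromosome 19, against 6.28% of chromosome 18 and 3.96% of chromosome 4. Over the 22 autosomes the share of origin-free regions had a Spearman rho of -0.84 with the part of the chromosome in WT regions and of -0.74 with RepID regions per Mb. These are descriptions, as chromosomes share the same libraries and the WT list enters both sides. The median distance to a WT origin ran from 5459 bp on chromosome 22 to 35380 bp on chromosome 4.

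KO overlap was lower in origin-free than in origin-near regions on 20 of 22 autosomes. The exceptions were chromosome 18, with 27.0 against 25.1%, and chromosome 19, with 20.8 against 16.8%. The gap was widest on chromosome 17, with 25.9 against 46.9%, and on chromosome 10, with 19.9 against 38.9%. Chromosome 8 stood out in level, as 35 of its 76 origin-free regions (46.1%) and 49.5% of its origin-near ones were overlapped, and KO regions covered 29.8% of it. KO regions covered more, 33.5%, only of chromosome 17. Copy number of these chromosomes in the KO cells was not tested.

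**Figure D5:**
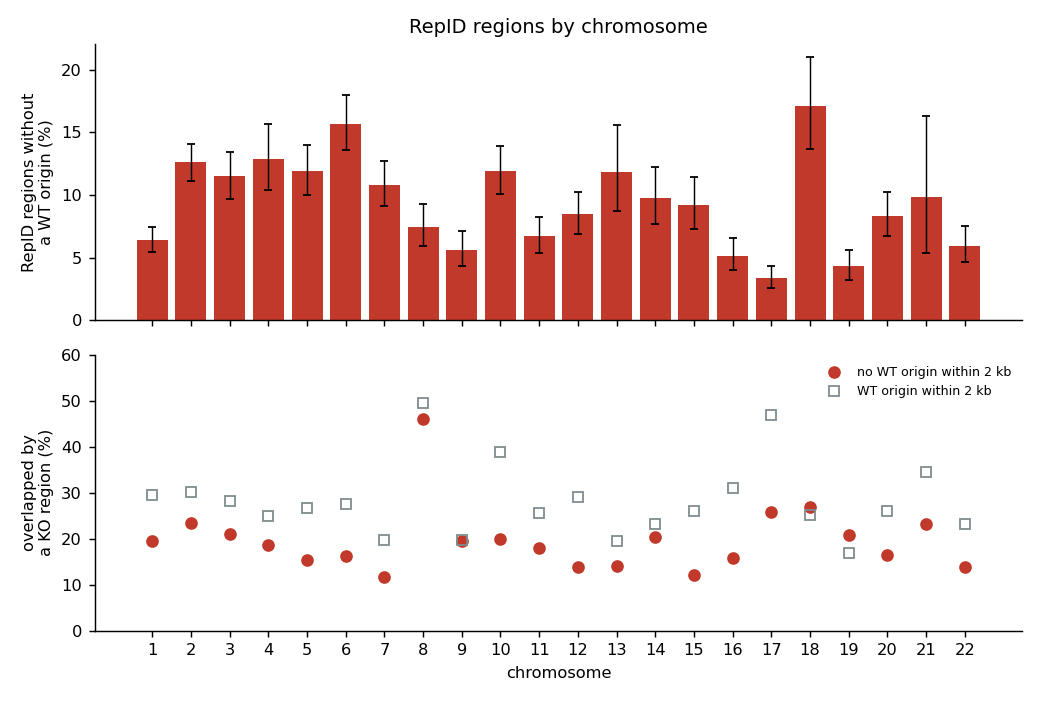
Top, percent of the RepID regions of each autosome that had no WT origin within 2 kb, with exact binomial 95% intervals; bottom, percent overlapped by a KO region for origin-free (red) and origin-near (grey squares) regions. The share runs from 3.36% on chromosome 17 to 17.1% on chromosome 18, and the red point lies above the grey one only on chromosomes 18 and 19.

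Short, isolated and well-scored RepID regions, picked here by the criteria of the study's motif search, held an excess of the class. The study gave a share near replication origins for its own set, which is not compared here. Under the same criteria of a width under 400 bp, a gap of more than 1 kb to other RepID regions and a score of at least 150, 262 autosomal regions were found. Of these, 70 (26.7%) were origin-free, against 8.78% of all autosomal RepID regions. Put the other way, 3.34% of origin-free and 0.881% of origin-near regions met the criteria, a difference of 2.46 percentage points (1.76 to 3.32). The PHIP stretch supplied 6 of the 70. The criteria of narrow width and wide spacing are themselves features of the class, so the excess is not separate from the values above, and the motif was not searched because no genome on these coordinates was used here.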

How the data were processed

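RepID ChIP-Seq regions of U2OS cells and nascent-strand regions of HCT116 WT and RepID KO cells were taken from the lists the authors deposited, 1 library and 1 list each. Each region has a score given by the authors. For RepID it is that of MACS, called against input. For nascent strands the meaning of the deposited score is not stated. The submitters' processing notes name MACS, SICER and hg19, and positions are given on hg19, counted from 1. Scores were compared only within a list. Other libraries of the series were not used.

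Gaps and overlaps (at least 1 bp) were computed in Python 3.11.15 (pandas 2.3.3, numpy 2.4.6, SciPy 1.17.1). The functions, tested on simulated data, gave the gaps and overlaps of bedtools 2.31.1. Shares have exact (Clopper-Pearson) 95% intervals, differences Newcombe intervals and medians order-statistic intervals. No test between conditions was made. Profiles were read every 100 bp. Regions named in the text are the 10 with the highest scores, the 5 farthest from a WT origin, the 5 widest, the 5 under the highest-scoring KO regions, the 5 highest-scoring without a KO region within 10 kb, the 5 on either side of the limit and the densest windows and groups. Further regions of the densest window were named after their values were seen. The class and these lists were chosen with earlier results of these data known. Genes, sequences and motifs at the regions were not analysed here, since no hg19 genome or annotation was used. Alternatives changed the limits, score thresholds, merging, edges and chromosomes included.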

Additional observations from a re-analysis of the deposited data

How the results depend on the processing

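Of 63 alternatives, 37 stayed within the error of the reported value, 26 moved beyond it and 0 changed sign. Shares, medians and ratios are positive by definition, so only the 14 alternatives for the difference in KO overlap could change sign. The cause of a move was not tested unless the setting itself fixes it. The share of origin-free regions was 12.2% when 1 bp of overlap was required to count as near, 5.25% at 10 kb, 22.2% with WT regions at or above their median score, 5.66% with RepID regions at or above theirs, 11.2% with RepID regions less than 1 kb apart merged, and 8.43 to 9.2% with 1 autosome left out. The median score was 147 at 1 bp and 163 at 10 kb. The median width was 450 bp at 1 bp, 674 bp in the upper-scoring RepID regions and 479 bp after merging. KO overlap of origin-free and origin-near regions was 36.5 and 53.9% within 2 kb, 15.1 and 20.3% at the centre, and 11.9 and 20.04% with the KO list cut to the number of WT regions. With WT regions at or above their median score it was 24.1% in origin-free regions. The difference in KO overlap stayed below 0 in all 14 alternatives, at -5.26 points with the higher-scoring WT regions, -13.7 after merging, -17.4 within 2 kb, -5.22 at the centre and -13.0 in solitary regions. The share with a RepID neighbour was 15.0% at 1 kb and 76.3% at 100 kb. The ratio of KO coverage at the centre was 0.917 in regions more than 10 kb from a WT origin, a setting chosen after the data were seen, as was leaving out regions beside the longest stretches. No paired analysis was possible because each condition has 1 library. Unknown depth limits what the absence of a WT origin means, and the binding and origin lists come from different cell lines.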
